A study of Mus musculus with 31 samples.

Results

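The mitochondrial carriers are the proteins of the Slc25 family, and they were measured here as liver transcripts in 31 BXD mouse strains. Members were the probes annotated to a single gene whose symbol is Slc25a followed by a number. The rule found 36 probes of 36 genes, among 21765 probes (15095 named genes) with a value on every array, so each carrier was read by 1 probe. Other Slc25a genes had no such probe and were not analysed here. BXD strains are recombinant inbred mice bred from C57BL/6J and DBA/2J parents, each strain being fixed for 1 parental allele at nearly every locus. Whole-liver RNA of 3 male mice aged 8 weeks was mixed per strain. This mix, in Alexa Fluor 647, was hybridised against a common pool of 9 male C57BL/6J livers of the same age, in Alexa Fluor 555. Strains formed 1 group with 1 array each and no dye swap, so p-values measure the spread between strains, and a dye effect on a probe adds to its mean. All arrays share the same reference pool, so a deviation of that pool on a probe also adds to its mean. The p-values do not measure these shared parts.

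Mitochondrial carriers are small proteins that sit in the inner membrane and exchange metabolites, nucleotides, cofactors and ions between the cytosol and the matrix. In liver they connect compartments: ATP leaves the matrix through the adenine nucleotide carriers, ornithine and aspartate cross it for the urea cycle, citrate leaves it for fatty acid synthesis, and acylcarnitines enter it for oxidation. Many carriers come as paralogs with overlapping substrates that are used in different tissues.

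Each value is a normalized log ratio, probably log2 with the strain above the reference. Means carry their SE (n = 31 strains). The log base and the direction are not stated in the sources used here. A ratio gives no expression level, so the levels of liver markers could not be checked and levels of different carriers cannot be compared. In pooled tissue, fewer cells of a type and less RNA per cell cannot be told apart. Arrays of 4 strains (23, 28, 40 and 42) stood apart, with a median r with the other arrays of 0.0568 to 0.370, against 0.570 to 0.790 for the other 27. Over all arrays, the 2532 probes whose identifier is divisible by 8 had a median mean of -0.58 against 0.04 elsewhere, and 6 carrier probes were among them (Slc25a3, Slc25a13, Slc25a15, Slc25a24, Slc25a29 and Slc25a38). Of 902 genes with 2 probes, the median r between these was 0.0111, so each carrier name stands for 1 probe.

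Promoters are shown for 5 carriers whose co-variation is described further on: Slc25a20, Slc25a39, Slc25a5, Slc25a1 and Slc25a10. RefSeq promoters (GRCm38.p6) matched 28 of the 36 carriers, and no entry was found for Slc25a2, Slc25a26, Slc25a27, Slc25a32, Slc25a35, Slc25a37, Slc25a44 and Slc25a46. Each run holds the 250 bases before the annotated start, 5′ to 3′ on the strand of the gene, and capitals mark a match on either strand to AGGTCA (nuclear receptor half-site), CCGGAAG (ETS factor core) or GGGCGG (GC box).
Slc25a20, chr9:108661886-108662135, + strand: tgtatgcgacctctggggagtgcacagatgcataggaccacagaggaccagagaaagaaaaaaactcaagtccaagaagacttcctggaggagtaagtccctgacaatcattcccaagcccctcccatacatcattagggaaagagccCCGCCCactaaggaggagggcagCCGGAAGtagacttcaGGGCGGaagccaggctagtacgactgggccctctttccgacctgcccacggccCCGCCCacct
Slc25a39, chr11:102407518-102407767, - strand: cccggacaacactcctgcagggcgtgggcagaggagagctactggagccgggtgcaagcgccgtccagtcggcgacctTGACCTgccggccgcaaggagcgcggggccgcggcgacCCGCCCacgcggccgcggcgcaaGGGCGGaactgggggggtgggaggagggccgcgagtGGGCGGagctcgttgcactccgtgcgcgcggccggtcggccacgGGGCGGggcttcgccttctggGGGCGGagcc
Slc25a5, chrX:36795347-36795596, + strand: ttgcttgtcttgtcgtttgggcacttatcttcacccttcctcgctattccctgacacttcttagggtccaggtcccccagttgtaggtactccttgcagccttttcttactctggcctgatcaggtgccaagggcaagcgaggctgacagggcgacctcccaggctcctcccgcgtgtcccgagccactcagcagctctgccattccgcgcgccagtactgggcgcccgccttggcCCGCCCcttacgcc
Slc25a1, chr16:17928220-17928469, - strand: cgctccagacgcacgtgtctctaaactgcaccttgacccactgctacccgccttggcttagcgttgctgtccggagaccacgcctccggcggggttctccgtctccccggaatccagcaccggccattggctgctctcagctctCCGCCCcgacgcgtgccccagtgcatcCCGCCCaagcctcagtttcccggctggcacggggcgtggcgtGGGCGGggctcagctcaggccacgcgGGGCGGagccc
Slc25a10, chr11:120491587-120491836, + strand: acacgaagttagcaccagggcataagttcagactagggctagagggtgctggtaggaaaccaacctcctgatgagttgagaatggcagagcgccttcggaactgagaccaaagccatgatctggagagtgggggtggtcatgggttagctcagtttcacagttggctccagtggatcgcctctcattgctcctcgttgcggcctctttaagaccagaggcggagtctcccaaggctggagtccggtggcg

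The letters GGGCGG or their reverse complement lay in 27 of the 37 annotated carrier promoters (73.0%), against 32.7% of 32851 promoters of all genes. CCGGAAG lay in 5 of 37 (13.5% against 6.9%) and AGGTCA in 1 of 37 (2.7% against 14.0%). The 5 runs differ in base composition, from 56.0% G and C in Slc25a10 to 77.2% in Slc25a39, and the median over all promoters was 52.4%. The Slc25a39 run holds 5 of the GC boxes and the AGGTCA match, the Slc25a20 run holds 3 GC boxes and the ETS letters, and the Slc25a10 run holds none of the 3 motifs. These matches describe letters in a window, not binding.

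The carriers did not move one way as a family. Of 36 carriers, 13 had a panel mean above the C57BL/6J reference, 10 a mean below it and 13 passed in neither direction (limma, Benjamini-Hochberg adjusted p under 0.05 over all probes). Among all probes tested, 37.4% were called higher and 37.6% lower, 75% in all, so the carriers' 63.9% was below the share of all probes. The median of the carriers' means was 0.05, against 0.00130 for all probes. By group, 7 of 12 nucleotide and cofactor carriers were called higher and 2 lower (58.3% and 16.7%). Of 9 amino acid carriers none was called higher and 3 lower (33.3%, near the 37.6% over all probes). All 3 were probes at every 8th place. With the place correction described below, 6 nucleotide and cofactor carriers were higher and 3 lower, and 1 amino acid carrier was higher and 3 lower. Of the 7 carriers in the dicarboxylate, tricarboxylate and oxo acid group, 2 were higher and 4 lower. The difference between these groups was not tested.

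**Figure D1:**
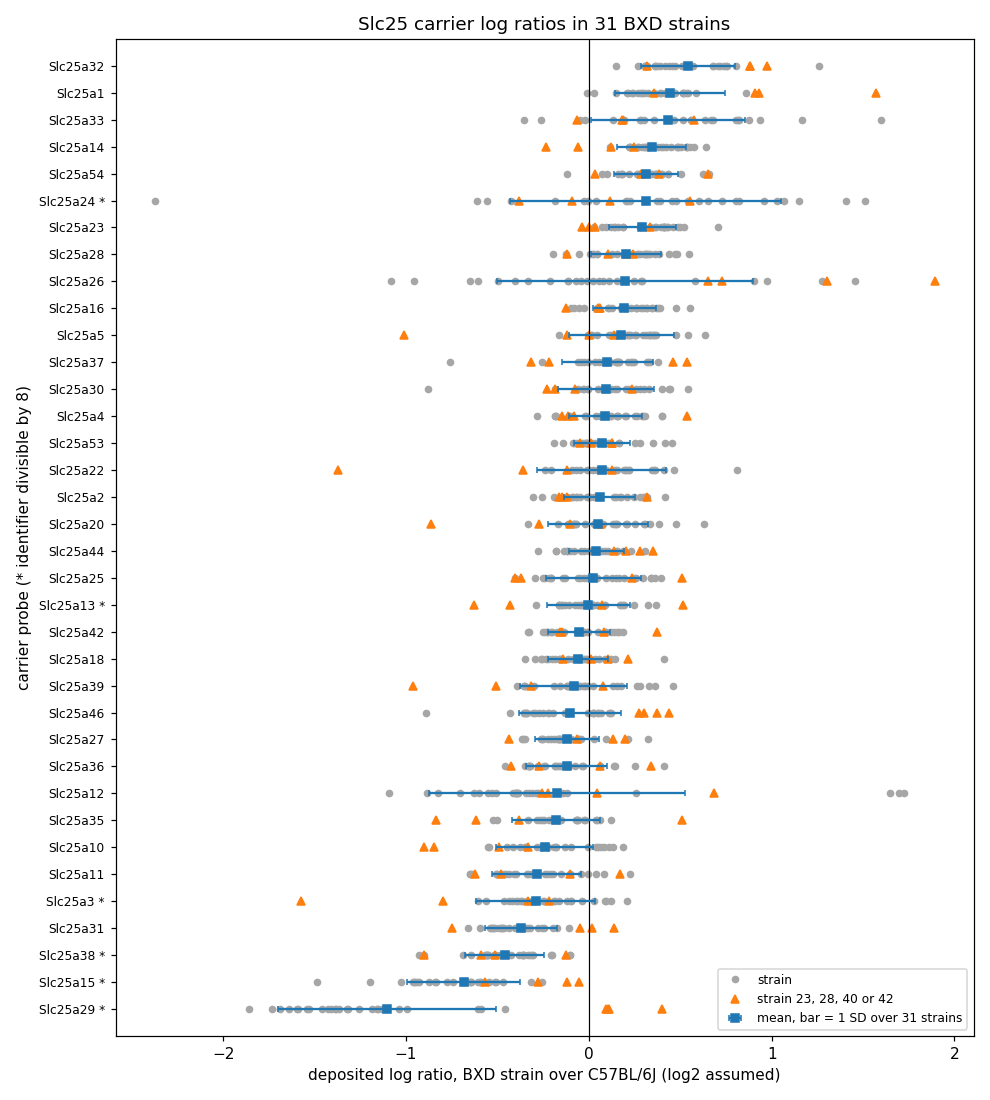
Log ratio of each of the 36 carriers (horizontal axis, log2 assumed) in each of 31 strains, with the mean as a square and 1 SD as a bar; triangles are strains 23, 28, 40 and 42, and asterisks mark probes at every 8th place. Slc25a32 at the top lies above 0 in all 31 strains, and Slc25a38 and Slc25a15 near the bottom lie below 0 in all 31.

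Among the nucleotide and cofactor carriers, Slc25a32, which carries folate and is also linked to FAD transport, had the highest mean of the family on the deposited values, in the likely direction. After subtracting, on each array, the median of all probes whose identifier has the same remainder when divided by 8 (the place correction), Slc25a24 (0.89) and Slc25a13 (0.57) lay above it (0.56). The ratios of Slc25a32 ran from 0.15 in strain 12 through a median of 0.45 to 1.26 in strain 9, and every strain was above the reference. The mean was 0.54 ± 0.046, or 1.46-fold (limma, adjusted p = 9.69e-13). Slc25a33, a pyrimidine nucleotide carrier, followed at 0.43 ± 0.076 (adjusted p = 2.13e-06). Its strains were spread from -0.35 in strain 5 to 1.60 in strain 39 around a median of 0.36, with 26 above 0. The other pyrimidine nucleotide carrier, Slc25a36, was called lower at -0.12, so the paralogs lay on opposite sides of the reference.

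The adenine nucleotide carriers, which exchange ATP for ADP, also lay on both sides. Slc25a5, the form widely expressed outside muscle, had a mean of 0.18 ± 0.051 (limma, adjusted p = 0.00185); its ratios ran from -1.01 in strain 40 through a median of 0.23 to 0.63 in strain 36. Only strain 40 stood far below the others, the next lowest being strain 8 at -0.16. Slc25a4, the heart and muscle form, had a mean of 0.09 ± 0.036 (adjusted p = 0.0275) and was not called with the place correction. Slc25a31, known as the testis form, was lower at -0.37 ± 0.035, with 29 of 31 strains below 0 (adjusted p = 3.33e-11). Its ratios went from -0.75 in strain 23 through a median of -0.37 to 0.14 in strain 40.

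Slc25a23, Slc25a24 and Slc25a25 are calcium-regulated ATP-Mg/phosphate carriers. Slc25a23 was called higher at 0.29 ± 0.033 with 29 of 31 strains above 0, and Slc25a24 at 0.31 ± 0.133 with 22 above 0 (limma, adjusted p = 0.0250). Slc25a24 is a probe at every 8th place; with the place correction its mean was 0.89, and 0.99 without the 4 strains as well. Slc25a25 had a mean of 0.02 and was not called. Slc25a16, a carrier linked to coenzyme A, was called higher at 0.19. Slc25a42, a coenzyme A carrier, had a mean of -0.05 and passed in neither direction, but it was called lower with the place correction (-0.12) and with both changes (-0.14). Not called in any of these fits was Slc25a26, the S-adenosylmethionine carrier, with a mean of 0.20 ± 0.126.

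Of the citrate, dicarboxylate and oxo acid carriers, Slc25a1, the citrate carrier that supplies acetyl groups for lipid synthesis, was called higher. Ratios ran from -0.01 in strain 21 through a median of 0.40 to 1.57 in strain 23, with 30 of 31 strains above 0. The mean was 0.44 ± 0.054, or 1.36-fold (limma, adjusted p = 3.25e-09), and 0.37 without the 4 strains that stood apart. Slc25a10, the dicarboxylate carrier, and Slc25a11, the oxoglutarate carrier, were both called lower. Slc25a10 ran from -0.90 in strain 23 through a median of -0.23 to 0.19 in strain 5 (mean -0.24 ± 0.047, adjusted p = 2.25e-05). Slc25a11 ran from -0.65 in strain 36 through a median of -0.32 to 0.22 in strain 8 (mean -0.29 ± 0.044, adjusted p = 3.92e-07).

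The uncoupling-protein-like carriers of this group differed. Slc25a14 was called higher, with strains from -0.23 in strain 28 through a median of 0.33 to 0.64 in strain 2 and 29 above 0 (limma, mean 0.34 ± 0.034, adjusted p = 1.03e-10). Slc25a27 was called lower at -0.12, and Slc25a30 passed in neither direction at 0.10, and was called higher without the 4 strains (0.12). Slc25a35, an orphan carrier, was called lower at -0.18 with 26 of 31 strains below 0.

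Amino acid carriers held the lowest mean of the family, but 4 of the 9 were probes at every 8th place. Slc25a29, which carries basic amino acids, ran from -1.86 in strain 27 through a median of -1.32 to 0.40 in strain 40. The 4 strains above 0 were 40, 28, 42 and 23, the ones whose arrays stood apart, and the other 27 did not overlap with them. The share of all probes that separate these strains in this way is not given. Of the 20 probes nearest to Slc25a29, 19 were also at every 8th place, so the separation is not called particular to this carrier. Its mean was -1.10 ± 0.107 (limma, adjusted p = 7.45e-12), -0.53 with the place correction, and -1.29 without the 4 strains. Slc25a15, the ornithine carrier of the urea cycle, was below 0 in all 31 strains, from -1.49 in strain 8 through a median of -0.65 to -0.06 in strain 42 (mean -0.69 ± 0.055, adjusted p = 1.48e-13). With the place correction this mean was -0.11. Slc25a38, the glycine carrier of haem synthesis, was also below 0 in all 31, from -0.93 in strain 16 through a median of -0.49 to -0.10 in strain 31 (mean -0.46 ± 0.039, adjusted p = 1.24e-12). With the place correction its mean was 0.11 and was not called, so the direction of Slc25a38 turned.

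The other amino acid carriers were not called on the deposited values. The aspartate/glutamate carriers are Slc25a13, the main form of liver, and Slc25a12, the main form of brain and muscle; both passed in neither direction, at -0.0022 and -0.17. Slc25a13 is a probe at every 8th place, and with the place correction it was called higher at 0.57. The second ornithine carrier Slc25a2, the glutamate carriers Slc25a18 and Slc25a22, and Slc25a44, a carrier of branched-chain amino acids, had means between -0.06 and 0.07 and none was called. Slc25a18 was called lower with the place correction (-0.10), without the 4 strains (-0.08) and with both (-0.12), and Slc25a22 was called higher without the 4 strains (0.14).

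Slc25a3, the phosphate carrier that supplies ATP synthase, ran from -1.58 in strain 42 through a median of -0.30 to 0.21 in strain 33 (limma, mean -0.29 ± 0.059, adjusted p = 2.43e-05). With the place correction its mean was 0.28 and was called higher, so its direction turned too. Slc25a20, the carnitine/acylcarnitine carrier, was not called at 0.05 ± 0.049, but was called higher without the 4 strains (0.10); strains ran from -0.87 in strain 23 through a median of 0.07 to 0.63 in strain 9. The mitoferrins, which import iron, were both called higher: Slc25a28 at 0.20 and Slc25a37 at 0.10, the latter not with the place correction. Slc25a39, which carries glutathione, was not called at -0.08, with strains from -0.96 in strain 23 to 0.46 in strain 15. Slc25a54 (0.31 ± 0.031) and Slc25a53 (0.07 ± 0.028) were called higher, the latter not with the place correction. Slc25a46, an outer membrane protein of mitochondrial fission, had a mean of -0.10 and was not called (adjusted p = 0.0535), and without the 4 strains it was called lower at -0.17.

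Across settings, 10 of the 13 higher calls and 7 of the 10 lower calls held in each of 4 fits: as deposited, with the place correction, without the 4 strains, and with both. The share of all probes whose calls held in this way is not given. With the place correction 12 carriers were called higher and 10 lower, against 37.0% and 36.9% of all probes. The calls lost or turned in at least 1 of them were Slc25a4, Slc25a37 and Slc25a53 among the higher, and Slc25a3, Slc25a15 and Slc25a38 among the lower. Of the 13 carriers not called, 7 were called in at least 1 of the other 3 fits: Slc25a13, Slc25a20, Slc25a22 and Slc25a30 higher, and Slc25a18, Slc25a42 and Slc25a46 lower.

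The carriers varied between strains about as much as other probes: their median SD was 0.246, against 0.239 for all probes, and 20 of 36 lay above that median. Widest were Slc25a24 (SD 0.742), Slc25a12 (0.70) and Slc25a26 (0.699), and with Slc25a29 (0.597) these 4 lay among the highest 10% of all probes. Slc25a33 (0.421) and Slc25a22 (0.352) followed. Narrowest was Slc25a44 at 0.151, and 12 carriers had an SD under 0.2.

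Slc25a24 ran from -2.38 in strain 38 through a median of 0.39 to 1.51 in strain 19. Strain 38 stood alone, the next lowest strain being 39 at -0.61. Slc25a12 showed another shape: strains 20, 39 and 5 reached 1.72, 1.70 and 1.65, the next highest was 0.68 in strain 23, and the median was -0.39. Slc25a26 had a continuous range, from -1.09 in strain 14 through a median of 0.08 to 1.89 in strain 28.

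Some carriers were narrower without the 4 strains that stood apart. The SD of Slc25a29 was 0.345 without them and that of Slc25a22 0.222. Slc25a22 ran from -1.37 in strain 23 through a median of 0.09 to 0.81 in strain 16, and the second lowest strain was 28 at -0.36. In contrast, the SDs of Slc25a24 (0.778), Slc25a12 (0.730) and Slc25a33 (0.434) were no smaller without these strains. Over the family, the 4 strains held 27 of the 72 lowest or highest values, 9 of them in strain 28 and 7 in strain 23. The same share over all probes is not given, so this count is no result about the family.

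**Figure D2:**
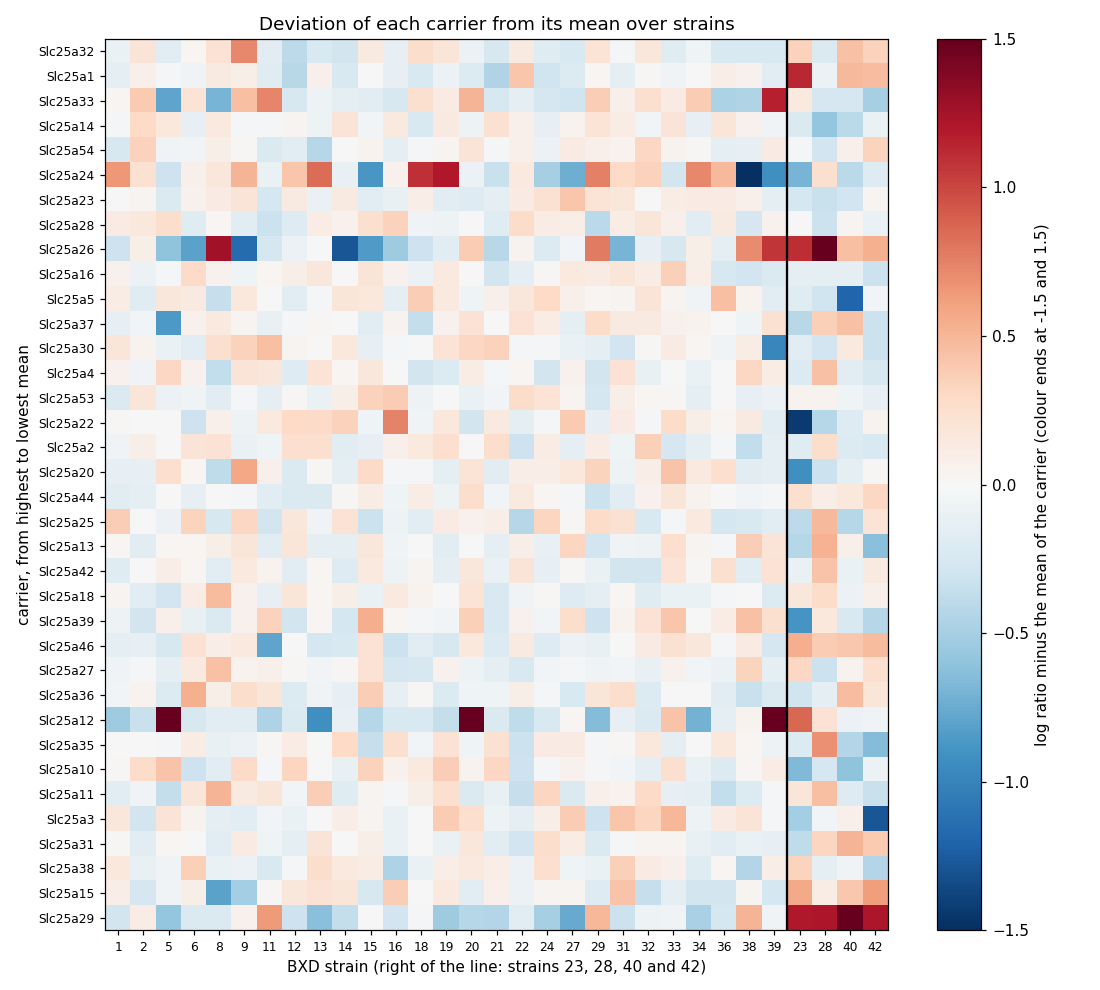
Each cell is the log ratio of a carrier in a strain minus the mean of that carrier over 31 strains; rows run from the highest to the lowest mean, and strains 23, 28, 40 and 42 stand right of the line. Slc25a29 is high in all 4 of these strains, Slc25a12 in strains 5, 20 and 39, and Slc25a24 is lowest in strain 38.

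Each carrier was then taken as a covariate against all other probes, and a pair was called where both carriers' fits passed (limma, adjusted p under 0.05 within each of the 36 fits). Of 630 pairs of carriers, 23 were called (3.65%), 11 positive and 12 negative, among 15 carriers. The share of called pairs between a carrier and any other probe was 4.77%, so the carriers' share was near the background and is no result about the family. An absolute r of at least 0.5 was seen in 4.76% of carrier pairs and in 5.48% of pairs of a carrier with any probe, and the mean r over carrier pairs was 0.0025.

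Slc25a29, the every-8th probe that was highest in the 4 strains standing apart, was in 8 of the 23 called pairs and Slc25a1 in 6. Over the 21764 other probes, Slc25a29 was called in both fits with 5504 and Slc25a1 with 5686. Their counts among the carriers were not above these shares and are no result about the family. Slc25a1 varied against Slc25a10, which exchanges dicarboxylates for phosphate (r = -0.65, permutation p = 0.0002; rho = -0.46, p = 0.0107; larger adjusted p = 0.00527), with r = -0.37 when the 2 strains farthest out for Slc25a10 were left out. Against Slc25a22 it had r = -0.65 (permutation p = 0.00247) and rho = -0.35 (p = 0.0519), and r was -0.20 without its 2 farthest strains, so that relation rests on those strains. Slc25a1 varied in the same direction as Slc25a29 (r = 0.62, permutation p = 0.00056; rho = 0.49, p = 0.00619), Slc25a46 (r = 0.61, permutation p = 0.00042; rho = 0.51, p = 0.00438) and Slc25a32 (r = 0.59, permutation p = 0.0008; rho = 0.60, p = 0.00051). Leaving out the 2 strains farthest out for Slc25a1 gave r = 0.39, 0.47 and 0.54 with Slc25a29, Slc25a46 and Slc25a32. Leaving out the 2 farthest out for the other carrier of each pair gave 0.65, 0.57 and 0.62.

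The other pairs of the 8 with the largest absolute r involved Slc25a46 and Slc25a39. Slc25a46 varied with Slc25a44 (r = 0.62, permutation p = 0.00022; rho = 0.60, p = 0.0005; 0.57 without the 2 farthest strains). The glutathione carrier Slc25a39 varied with the phosphate carrier Slc25a3 (r = 0.60, permutation p = 0.00098; rho = 0.55, p = 0.00145; 0.60 without the 2 farthest strains). It also varied with the carnitine carrier Slc25a20 (r = 0.58, permutation p = 0.00096; rho = 0.45, p = 0.0124), where r was 0.31 without the 2 farthest strains.

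The calls between carriers depended on the 4 strains that stood apart. Without them no pair was called, 21 of the 23 kept their sign, and the median absolute r of the 23 went from 0.55 to 0.36. An absolute r of at least 0.5 was then seen in 3.33% of carrier pairs and in 2.91% of pairs with any probe. Without strain 23 alone 8 pairs were called, and without strain 40 alone 14. With the place correction 37 were called, 16 of them among the 23, and with ranks in place of values 5, all among the 23. The share of called pairs between a carrier and any other probe was not taken in these fits. Their counts therefore have no background beside them.

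**Figure D3:**
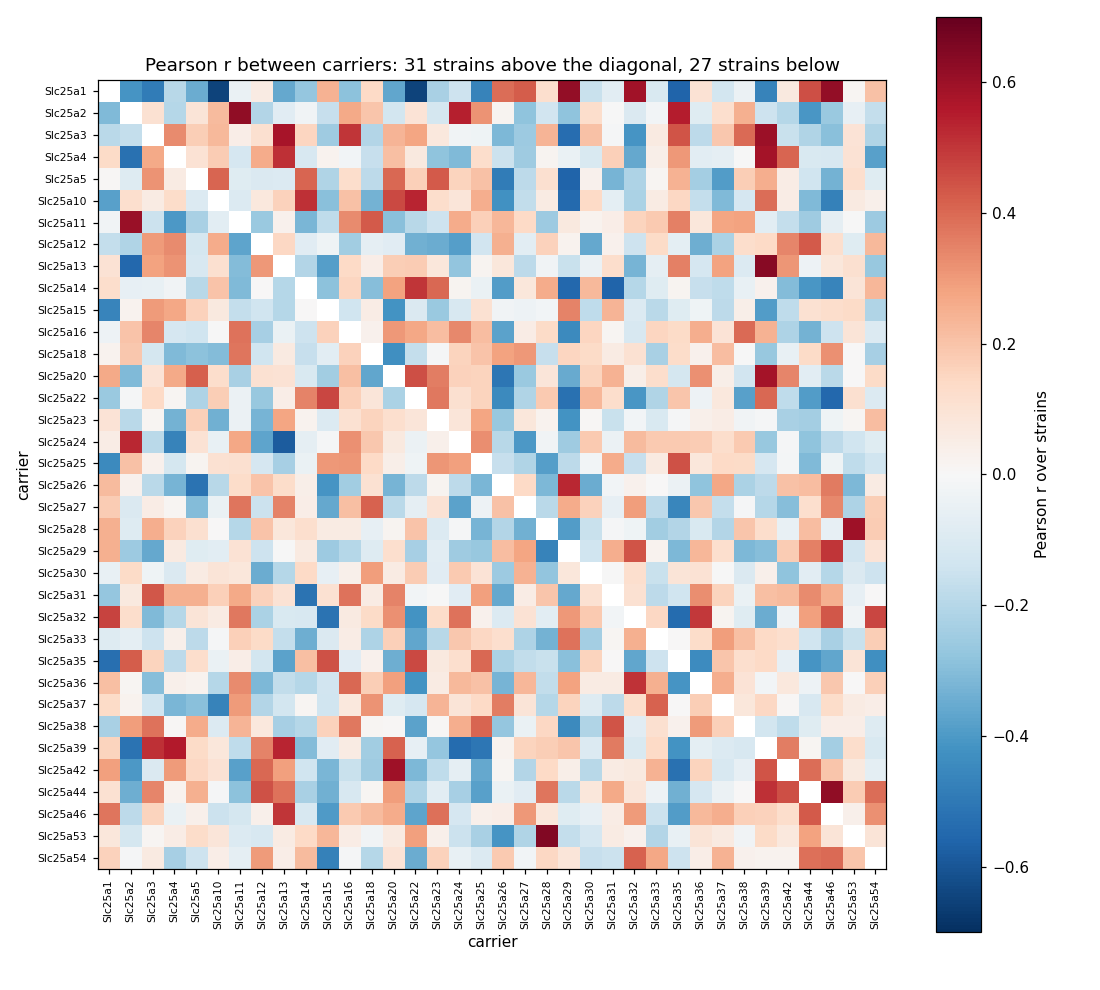
Pearson r between carriers over strains, in 31 strains above the diagonal and in the 27 strains without 23, 28, 40 and 42 below it; red is positive and blue negative. Slc25a1 with Slc25a10 is -0.65 above the diagonal and -0.38 below it.

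None of 9 pairs listed as one subtype was called, and their r lay between -0.20 for the mitoferrins Slc25a28 and Slc25a37 and 0.33 for Slc25a24 and Slc25a25. The ATP/ADP carriers Slc25a4 and Slc25a5 had r = 0.10 (permutation p = 0.595) and rho = 0.05 (p = 0.788), and the aspartate/glutamate carriers Slc25a12 and Slc25a13 r = 0.15 (permutation p = 0.425) and rho = 0.33 (p = 0.0668). A p that misses the threshold does not show that these paralogs vary apart. Some pairs that were not called, chosen after their values were seen, changed little without the 4 strains: Slc25a4 with Slc25a39 had r = 0.58 and 0.56 without them, and Slc25a2 with Slc25a11 0.62 and 0.60. Slc25a20 with the coenzyme A carrier Slc25a42 had 0.34 and 0.59, and Slc25a28 with Slc25a53 0.59 and 0.65.

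The number of probes of all kinds that varied with a carrier differed widely. Slc25a1 was called with 34.3% of all other probes, Slc25a29 with 31.7%, Slc25a46 with 25% and Slc25a35 with 23.6%, while 10 carriers were called with none. These counts moved with the place correction: Slc25a38 went from 0 called probes to 5427, Slc25a13 from 2 to 5046 and Slc25a3 from 784 to 5678. More than 1000 probes were called for 11 carriers, and for 2, Slc25a1 and Slc25a35, without the 4 strains. Slc25a1 was highest in strain 23 and Slc25a35 lowest in strain 42. Markers of hepatocytes and of Kupffer cells, the resident macrophages of liver, were set beside the carriers. Slc25a1 was called with 5 of 14 hepatocyte probes and 5 of 5 Kupffer cell probes, all negative, and Slc25a10, called with 14% of all probes, with 2 and 4, all positive. The hepatocyte shares were near those over all probes. Slc25a10 was also called with 1 of 6 adipocyte probes (negative), and with 2 of 7 endothelial and stellate and 1 of 5 testis probes (positive). It was called with none of the other lists, and with no probe without the 4 strains. Among other carriers, Slc25a46 was called with 4 of 5 and Slc25a29 with 3 of 5 Kupffer cell probes, all negative (25% and 31.7% of all probes). They were also called with 2 and 4 of 14 hepatocyte probes and each with 3 of 12 lymphoid probes (negative) and 2 of 6 adipocyte probes (positive). Slc25a39, Slc25a3 and Slc25a5 were each called with 2 of 5 Kupffer cell probes, all positive (2.43%, 3.60% and 16.3% of all probes). Slc25a32 was called with 2 of 5, all negative (8.1%). Without the 4 strains Slc25a29 and Slc25a3 were called with no probe. Of the other marker lists, Slc25a1 was called with 3 of 7 muscle (1 positive, 2 negative) and 4 of 12 lymphoid probes (2 positive, 2 negative). It was called with 1 of 6 adipocyte probes (positive) and 0 of 5 exocrine pancreas probes. It was called negatively with 1 of 4 erythroid, 2 of 7 endothelial and stellate and 1 of 5 testis probes. The part of these cells in the carriers' values was not tested.

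Each carrier of a liver pathway was set beside a list of that pathway's genes. In all 17 calls were made, of which 1 was kept without the 4 strains. Slc25a20 was set beside 24 probes of fatty acid oxidation, and 1 was called, that of Cpt2, the inner-membrane enzyme that turns imported acylcarnitines back into acyl-CoA (1.63% of all probes were called with Slc25a20). The relation had r = 0.61 (permutation p = 0.00064) and rho = 0.67 (p = 6e-05), with an adjusted p of 0.0380 in limma, and r was 0.50 without the 2 farthest strains. Cpt2 ran from -0.49 in strain 40 through a median of 0.23 to 0.58 in strain 27. Without the 4 strains r was 0.53 and the adjusted p 0.333. Eci1, an isomerase of the same pathway, had r = 0.54 (permutation p = 0.0029) and rho = 0.71 (p = 1e-05, the smallest the permutations can give), with an adjusted p of 0.0617. The Cpt2 call was also lost with the place correction and with ranks in place of values. Over the 24 probes the median r was 0.14 and 20 were positive, against a median of 0.01 for all probes. The share of all probes with a positive r is not given.

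Slc25a39 was called with 1 of 8 probes of haem synthesis, that of Urod, uroporphyrinogen decarboxylase (2.43% of all probes). This call held without the 4 strains, and was lost with ranks in place of values: r was 0.59 (permutation p = 0.00151) and rho 0.70 (p = 2e-05) in 31 strains, adjusted p = 0.0359 in limma, and r was 0.65 with an adjusted p of 0.0243 in 27. It was 0.68 without the 2 strains farthest out for Slc25a39. Without the 4 strains 4.0% of all probes were called with Slc25a39. Urod was also the named gene nearest to the phosphate carrier Slc25a3, with r = 0.76, and 0.57 without the 4 strains. Urod ran from -1.07 in strain 42 through a median of 0.07 to 0.65 in strain 33. The mitoferrins Slc25a28 and Slc25a37 and the glycine carrier Slc25a38 were called with none of the 8, as with 0 to 0.0184% of all probes. With the place correction Slc25a38, an every-8th probe, was called with 1 of the 8 (positive) and with 5427 of all probes.

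The carriers that serve ATP synthase were set beside 17 of its probes. Slc25a5 was called with 5, all positive (16.3% of all probes), and Slc25a3 with 3, all positive (3.60%). The largest r were those of Slc25a5 with Atp5j2 (r = 0.65, permutation p = 0.00124; rho = 0.47, p = 0.00888; 0.41 without the 2 farthest strains) and of Slc25a3 with Atp5o (r = 0.70, permutation p = 0.00123; rho = 0.39, p = 0.0301; 0.28 without them). Without the 4 strains these were 0.39 and 0.22 and no ATP synthase probe was called. With the place correction Slc25a5 was called with 4 of the 17, all positive. Slc25a3, an every-8th probe, was then called with 6 positive and 1 negative, and with 5678 of all probes. Slc25a4 was called with none of the 17, nor with any other probe.

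Fatty acid synthesis was read by 17 probes. Slc25a1 was called with 4 of them (34.3% of all probes), positive with 1 of 3 probes of Acaca, acetyl-CoA carboxylase, and with Me1, malic enzyme, and negative with Elovl6, a fatty acid elongase, and Aacs. With Aacs, acetoacetyl-CoA synthetase, r was -0.62 (permutation p = 0.00033) and rho -0.61 (p = 0.00037), and r was -0.61 without the 2 farthest strains. The other Acaca probes had r = 0.27 and 0.16 and were not called. For the called Acaca probe r was 0.51 (permutation p = 0.0129) but rho 0.01 (p = 0.958), and r was -0.38 without the 4 strains, so its direction turned. Me1, an every-8th probe, had r = 0.46, and 0.15 without the 2 strains farthest out for Slc25a1. Without the 4 strains its r was 0.31 and its adjusted p 0.353 in limma. With the place correction Slc25a1 was called with 1 of the 17 positively and 2 negatively. Slc25a10 was called with 3 (14.0% of all probes): Elovl6 and Gpam, a glycerol-phosphate acyltransferase, were positive and the same Acaca probe negative (r = -0.56), the other Acaca probes having r = -0.25 and 0.07. Slc25a11 was called with none. Slc25a13, Slc25a15 and Slc25a22 were called with none of 7 urea cycle probes, and with 0.00919%, 0.193% and 11.6% of all probes. Slc25a11, Slc25a12 and Slc25a13 were called with none of 5 malate-aspartate shuttle probes, Slc25a11 and Slc25a12 each with 0.00459% of all probes. With the place correction Slc25a13, an every-8th probe, was called with 1 urea cycle probe (positive) and 1 shuttle probe (negative). It was then called with 5046 of all probes.

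**Figure D4:**
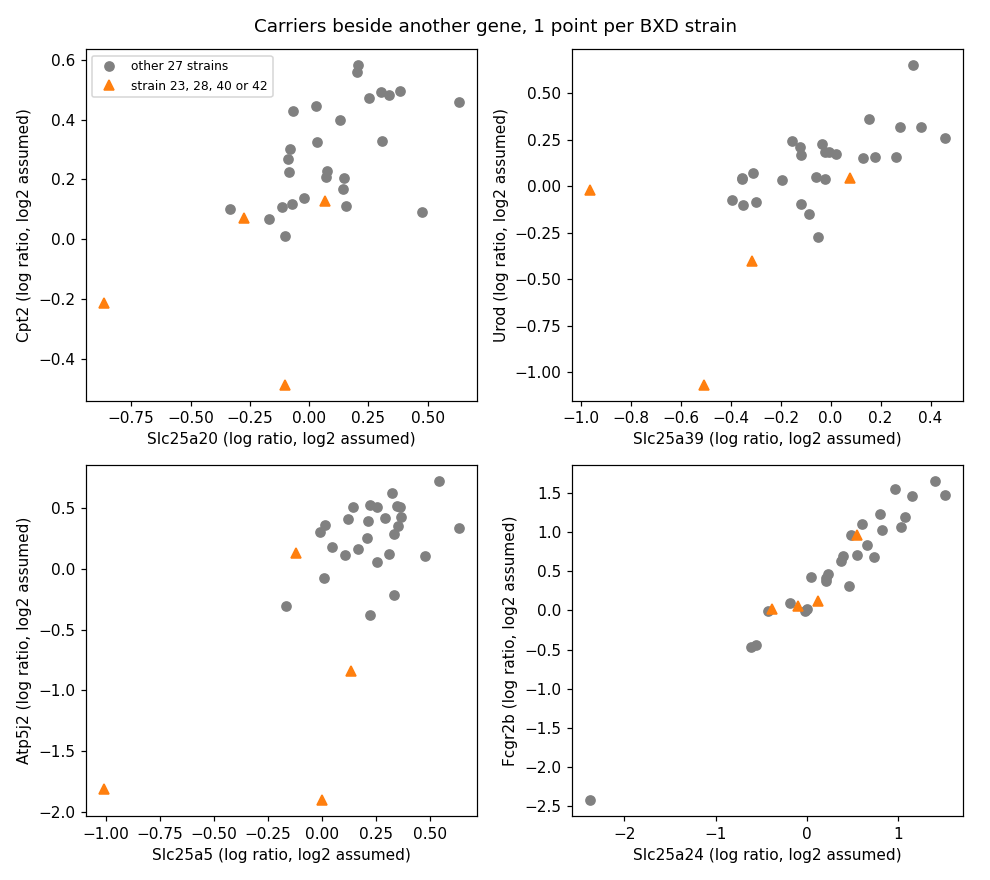
Log ratios (log2 assumed) of 4 carriers and another gene, 1 point per strain; triangles are strains 23, 28, 40 and 42. The Slc25a39 and Urod points rise together among the other 27 strains (r = 0.65), the Slc25a5 and Atp5j2 points less so (0.39), and Slc25a24 and Fcgr2b lie along a line with strain 38 far below.

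For the 6 widest carriers, the 3 most similar probes with a single named gene are given. Probes without such a name could lie closer. These probes were picked for their high r from all named probes. Their permutation p-values do not allow for this picking and lend the likeness no further support. Slc25a24 was the closest to other probes of any carrier: 25 probes had an r of at least 0.9 with it, against 4 for Slc25a29, 1 for Slc25a26 and none for the other 33. The nearest named genes were Fcgr2b, an inhibitory Fc receptor (r = 0.97 and rho = 0.96, both with permutation p = 1e-05), the clone 2610016E04Rik (r = 0.96) and Calb2, a calcium-binding protein (r = 0.96). Without the 2 farthest strains r with Fcgr2b was 0.95, and without the 4 strains it was 0.98. Fcgr2b ran from -2.42 in strain 38 through a median of 0.64 to 1.66 in strain 18. Calb2 and H2-Eb1 were lowest in strain 38 too, at -2.71 and -2.75. H2-Eb1, a class II antigen-presentation gene, was chosen after its values were seen. Of the marker lists, Slc25a24 was called with 0 of 5 Kupffer cell and 1 of 12 lymphoid probes (1.2% of all probes).

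Among named genes, Slc25a26 was nearest to 1110065P20Rik (r = 0.91), Esyt1, an endoplasmic reticulum tethering protein (0.90), and 4933432I09Rik (0.89), with rho between 0.85 and 0.90 and permutation p = 1e-05 for both. Without the 4 strains these r were 0.85, 0.87 and 0.85. Slc25a29 was nearest to 1110008P14Rik (r = 0.92), Auts2 (0.91) and Tcap (0.90), all 3 probes at every 8th place, as were 19 of its 20 nearest probes. Without the 4 strains its r with them was 0.70, 0.68 and 0.61.

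The named genes nearest to Slc25a22 were Csmd2os (r = 0.79 and 0.72 without the 4 strains), Map3k8 and 1810021B22Rik. With Map3k8, a kinase, r was 0.78 (permutation p = 0.00146) but rho 0.33 (p = 0.0722), and r was 0.14 without the 4 strains, so it rests on them. For Slc25a12 (Cacng3, r = 0.62; Ebna1bp2, 0.60; Sox12, 0.60) and Slc25a33 (Lrrc6, 0.69; Lama3, 0.66; Efnb2, 0.63) none of the nearest 3 was called.

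Outside the rule, and chosen after values were seen, the named gene nearest to Slc25a5 was Cox5b, a subunit of cytochrome c oxidase, with r = 0.85 (permutation p = 1e-05) and rho = 0.69 (p = 3e-05), and 0.61 without the 4 strains. The one nearest to Slc25a42 was Vnn1, pantetheinase, an enzyme of coenzyme A breakdown. There r was 0.72 (permutation p = 1e-05) and rho 0.70 (p = 2e-05), and r was 0.70 without the 4 strains. Both pairs were picked from the nearest genes of all carriers. Their permutation p-values do not allow for this picking. Probes with neighbouring identifiers had a mean r of 0.103 over the whole table. The 70 neighbours of carrier probes had a median r of 0.0913 with them, and no called carrier pair lay closer than 709 identifiers.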

How the data were processed

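Liver RNA from 31 BXD strains was hybridised to 2-colour arrays. The authors deposited normalized log ratios, read here as log2 values; the submitters' processing notes name limma and R 2.0.0. How background and normalization were handled is not given in the sources used here. Without intensities, signal over background is unknown, and the number of arrays limits precision. Of 23040 features, 1275 were empty on every array and 21765 were tested.

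Probe names came from the platform annotation, updated through a RefSeq table of GRCm38.p6. The panel mean was tested with limma 3.58.1 in R 4.3.3 (intercept, lmFit and eBayes; two-sided p-values, adjusted by Benjamini-Hochberg over all probes, threshold 0.05). For each carrier, all other probes were fitted on its values, adjusted within that fit. Correlations have two-sided permutation p-values (100000 resamples), made for each pair by itself with no allowance for how the pair was picked. The fits were tested on simulated data. Alternatives were the place correction, leaving out strains, treat, centring, trended eBayes, averaging per gene, array limits and ranks.

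Members, lists and tests were chosen with earlier results of these data known. Every carrier probe was named with its mean and call; strain ranges were given for the 4 highest and 4 lowest means, the 6 largest SDs and pathway carriers; the 8 called pairs with the largest absolute r, same-subtype pairs, the 3 nearest genes of the 6 widest carriers and up to 4 called members of a list were named. Markers of 9 cell types were set beside each carrier. Counts for all 9 are given for Slc25a1, the carrier called with most probes, and for Slc25a10. For some other carriers only part of the counts is given. No value of a carrier lay at the limits of its array.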

Additional observations from a re-analysis of the deposited data

How the results depend on the processing

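Median centring, averaging probes per gene and setting values at array limits to missing left each of the 36 panel means on its side of the threshold. Testing for a mean beyond 0.2 left 6 higher and 4 lower calls. Shares over all probes are not given for this fit or for the fits that leave out strains. Leaving out each strain in turn gave 11 to 14 higher calls, 10 to 13 lower calls, 8 to 25 called pairs and 9 to 19 calls in the pathway lists, with 8 pairs and 9 pathway calls without strain 23. The place correction turned Slc25a13 (0.57), Slc25a3 (0.28) and Slc25a38 (0.11); together with leaving out strains 23, 28, 40 and 42 these were 0.66, 0.41 and 0.19. Called pairs numbered 37 with the place correction, 0 without the 4 strains, 0 with both and 5 by ranks. The share of called pairs between a carrier and any other probe was taken only on the deposited values. Pathway calls numbered 1 without the 4 strains, 1 with both and 2 by ranks. Slc25a14 with Slc25a29 turned to r = 0.0613 without the 4 strains and 0.0684 with both, and Slc25a46 with Slc25a29 to -0.0840 and -0.20. The cause of these changes was not tested, although the fits without the 4 strains also hold fewer samples. No paired analysis was possible because the strains form 1 group. With 1 array per strain, no strain's value has an error of its own.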
